A study of Arabidopsis with 12 samples.

Results

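The genes described here encode 7 proteins that bring secretory vesicles to the plasma membrane of *Arabidopsis*. They were taken from the deposited expression table by locus identifier, with no threshold on their values, and are 7 of its 27371 genes. They are the plasma membrane syntaxins *PEN1* (AT3G11820, also named *SYP121*, chromosome 3) and *SYP122* (AT3G52400, chromosome 3), the SNAP25-type *SNAP33* (AT5G61210, chromosome 5), and the vesicle proteins *VAMP721* (AT1G04750, chromosome 1) and *VAMP722* (AT2G33120, chromosome 2). The last members are the exocyst subunits *EXO70B1* (AT5G58430, chromosome 5) and *EXO70B2* (AT1G07000, chromosome 1).

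Secretion ends when a vesicle is tethered to the plasma membrane by the exocyst, a complex of several subunits, and then fuses with it through SNARE proteins. The fusing complex joins a syntaxin and a SNAP25-type protein of the plasma membrane to a VAMP carried by the vesicle. In *Arabidopsis*, PEN1, SNAP33 and VAMP721 or VAMP722 form such a complex, which is known for limiting the entry of powdery mildew fungi. EXO70B1 and EXO70B2 are known to act in immunity and in the delivery of FLS2, the receptor of flg22.

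RNA-Seq compared WT (Col-0) seedlings with *wlim2a-1*, a CRISPR-Cas9 line with a frameshift in the actin-bundling protein gene *WLIM2A*, each given water (mock) or flg22, a peptide of bacterial flagellin that triggers immunity. All seedlings were 14 days old, were kept in liquid medium overnight and were treated for 1 h, with flg22 at 1 µM. Both genotypes were sampled with and without the peptide, which gave 4 conditions of 3 biological replicates, or 12 samples. The mutant is represented by a single allele, whole seedlings mix many cell types, and fewer cells of a type cannot be told apart from less RNA per cell.

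The table holds a single FPKM per gene and condition (fragment counts scaled to transcript length and to the number of mapped fragments), in which the authors had combined the replicates. The spread between replicates is therefore unknown, no difference could be tested, and every value below describes these 4 columns. Differences are given as log2(FPKM + 1), and a gene was called higher or lower if its FPKM + 1 was at least 2-fold apart, among the 19323 genes with at least 1 FPKM in some condition. The pseudocount makes the difference smaller than the plain FPKM ratio, most of all for genes of low level. The depth obtained for each library was not stated in the labels or methods. *FRK1*, an early flg22 marker, was at 0.072 (mock) and 0.942 FPKM (flg22) in WT, beside 0.405 and 3.13 in the mutant, higher with flg22 in both genotypes. By the rule above it was called only in *wlim2a-1* (log2 difference 1.56, against 0.86 in WT), and both WT values were under 1 FPKM. *WLIM2A* itself had 6.20 to 12.6 FPKM, and a frameshift need not remove the transcript, so its level does not check the genotype.

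The *wlim2a-1* mock column stood apart, since the 83 genes encoded in the chloroplast had a median log2 difference of 2.00 there against WT mock and of 0.46 between the genotypes after flg22. The seedling markers *PYK10* and *COBL9* of the root and *MYB60* of guard cells were above 0 in all columns. The leaf genes *RBCS1A* and *CAB1* were listed at 0 in both WT columns and at 11504 to 29857 FPKM in the mutant columns. The locus AT2G01021 held 28.9% to 67.4% of the summed FPKM of a column. An exact 0 in this table can thus be a failed estimate, and none of the 7 secretion genes was listed at 0.

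All 7 genes were well above the middle of the table in every column. The lowest of their values was 15.5 FPKM, for *EXO70B2* in WT mock, which exceeded 69.2% of the genes compared, and the highest was 186 FPKM, for *SYP122* in *wlim2a-1* flg22, which exceeded 97.1%. In WT mock the order of the levels per transcript length was *EXO70B1*, *SYP122*, *SNAP33*, *VAMP722*, *PEN1*, *VAMP721* and *EXO70B2*. In both flg22 columns *SYP122* came first and *PEN1* next, and *VAMP721* came last. *EXO70B2* moved from the seventh place in WT mock to the fourth in WT flg22 and the third in *wlim2a-1* flg22. Whether neighbors in these orders differ cannot be said without a spread.

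**Figure D1:**
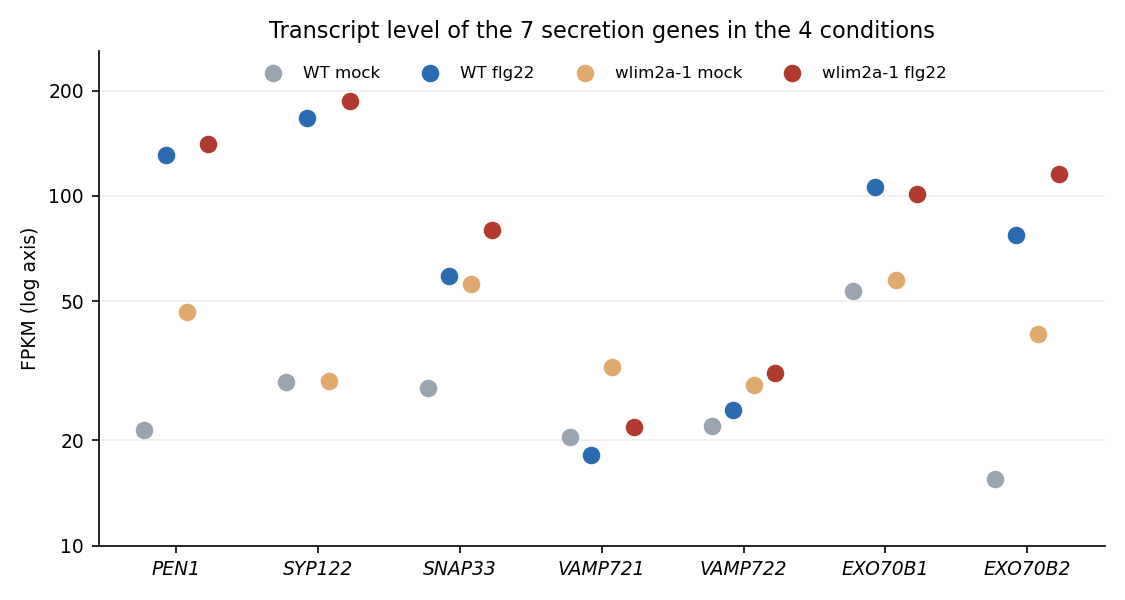
FPKM (log axis) of the 7 genes, with 1 point per condition, the authors' combined value of 3 replicates, and no error bar because no values per replicate were analyzed. *PEN1*, *SYP122*, *SNAP33*, *EXO70B1* and *EXO70B2* have both flg22 points above both mock points, while the 4 points of *VAMP722* lie between 22.0 and 31.2.

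The syntaxins *SYP122* and *PEN1* had the highest levels of the 7 genes after flg22. *PEN1*, the syntaxin of the penetration resistance complex, was at 21.4 FPKM with mock and 131 with flg22 in WT, and at 46.5 and 141 in the mutant. The flg22 columns lay close together, and the mock columns did not. Its FPKM ratio of flg22 to mock was 6.11 in WT and 3.02 in *wlim2a-1*, or 2.56 and 1.58 on the log2 scale, and 195 of the genes compared had a larger value in WT and 526 in *wlim2a-1*. In mock, *PEN1* was 2.18-fold higher in *wlim2a-1* than in WT (log2 difference 1.09), against 1.08-fold after flg22 (0.11).

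*SYP122*, the closest relative of *PEN1* among the syntaxins and partly able to replace it, was at 29.5 (mock) and 168 FPKM (flg22) in WT, beside 29.6 and 186 in the mutant. Unlike those of *PEN1*, its mock values were nearly equal, at a ratio of 1.00. With flg22 it was 5.69-fold higher in WT and 6.30-fold higher in *wlim2a-1*, with log2 differences of 2.47 and 2.62. The balance within the pair stood apart in *wlim2a-1* mock. *PEN1* was at 0.725 of the level of *SYP122* in WT with mock, at 0.779 with flg22, and at 0.754 in flg22-treated *wlim2a-1*, but at 1.57 times its level in mock-treated *wlim2a-1*. The summed level of the pair was 50.8 FPKM (mock) and 298 (flg22) in WT, and 76.1 and 327 in the mutant.

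*SNAP33*, the SNAP25-type partner of these syntaxins, was at 28.2 FPKM with mock and 58.9 with flg22 in WT, and at 56.0 and 79.7 in the mutant. WT mock was the low column, and *wlim2a-1* mock was about as high as WT flg22. With flg22 the log2 difference was 1.04 for WT and 0.50 for the mutant, so only the value in WT passed 2-fold, and it did so narrowly. With a pseudocount of 5 it missed 2-fold, at 0.94, as it did after scaling to equal upper quartiles, at 0.97, or to equal sums, at 0.99, or to *ACT2* and *UBQ10* averaged, at 0.46. Scaled in that last way, the mutant value was −0.13, the opposite direction. Between the genotypes *SNAP33* was 1.99-fold higher in *wlim2a-1* mock (log2 difference 0.96) and 1.35-fold higher in *wlim2a-1* flg22 (0.43). Relative to *ACT2* and *UBQ10* the mock difference passed 2-fold, at 1.07.

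The vesicle partners showed no such difference with flg22. *VAMP721* was at 20.4 (mock) and 18.2 FPKM (flg22) in WT, beside 32.5 and 21.9 in the mutant, and *wlim2a-1* mock was its high column. On the log2 scale flg22 and mock differed by −0.16 in WT and −0.55 in the mutant, and the mock columns differed by 0.65 between *wlim2a-1* and WT. *VAMP722*, a close homolog that can replace *VAMP721*, had 22.0, 24.4, 28.9 and 31.2 FPKM in WT mock and flg22 and then the mutant. Both of its *wlim2a-1* values were above both WT values, and its log2 differences with flg22 were 0.14 (WT) and 0.11 (mutant). These flg22 values were negative relative to *ACT2* and *UBQ10*, at −0.42 and −0.51. Reads from such similar genes can be shared, so the separate values of *VAMP721* and *VAMP722* are uncertain. Their sum was 42.4 FPKM (mock) and 42.5 (flg22) in WT, and 61.3 and 53.1 in the mutant, for log2 differences of 0.0055 and −0.20.

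The exocyst subunits differed from each other. *EXO70B1*, which is known to take part in autophagy-related transport as well as immunity, was at 53.6 FPKM with mock and 106 with flg22 in WT, and at 57.5 and 101 in the mutant. The genotypes were nearly alike in both treatments. Its log2 differences with flg22, 0.98 (WT) and 0.81 (mutant), were just under 2-fold, and those between the genotypes were 0.10 in mock and −0.07 after flg22, the latter 0.11 after scaling to equal sums. *EXO70B2*, whose protein is a target of the ubiquitin ligase PUB22, was at 15.5 (mock) and 77.5 FPKM (flg22) in WT, beside 40.2 and 116 in the mutant. Both *wlim2a-1* values were above the WT value of the same treatment, and no other member had a larger ratio of highest to lowest column, at 7.46. With flg22 it was 4.99-fold higher in WT and 2.88-fold higher in *wlim2a-1* (log2 differences 2.25 and 1.51), and in *wlim2a-1* it was 2.59-fold higher in mock and 1.49-fold higher after flg22 (1.32 and 0.57). In WT, *EXO70B2* stood at 0.290 of the level of *EXO70B1* with mock and 0.729 with flg22, and in the mutant at 0.699 and 1.14, so it was the higher of the pair only in flg22-treated mutant seedlings.

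Across the members, flg22 was accompanied by higher transcript levels of *PEN1*, *SYP122*, *SNAP33* and *EXO70B2* in WT. These 4 of the 7 genes were called higher and none was called lower, against 4.47% of all genes compared that were called higher. The median log2 difference of the members was 1.04, and that of all genes compared was −0.05. In *wlim2a-1*, 3 of the 7 genes, *PEN1*, *SYP122* and *EXO70B2*, were called higher and none lower, where 5.53% of all genes were called higher, and the medians were 0.81 and −0.09. Relative to *ACT2* and *UBQ10*, *SYP122* alone stayed called higher in *wlim2a-1* and *VAMP721* was called lower, at −1.17. Of the 19587 genes compared under that scaling, 4156 were called lower in *wlim2a-1* and 561 higher. The call of *VAMP721* therefore does not set it apart. That scaling set the median of all genes to −0.54 in WT and −0.63 in *wlim2a-1*, and *UBQ10* itself had 1008 FPKM in WT mock and 1660 in WT flg22. The *wlim2a-1* flg22 column was also set against WT mock in place of *wlim2a-1* mock, a choice made after seeing the data. There 4 of the 7 genes were called higher, *SNAP33* joining at 1.47, and *VAMP721* was at 0.10 in place of −0.55. The share of all genes called was not computed for this comparison, which differs in both genotype and treatment.

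Without flg22, all 7 genes had a higher value in *wlim2a-1* than in WT, although the log2 difference of *SYP122* was only 0.01. *PEN1* and *EXO70B2*, 2 of the 7 genes, were called higher and none lower, beside 4.48% of all genes called higher, and the median was 0.65 against 0.01 for all genes. Of all genes compared, 51.0% had a value above 0 in this comparison. After scaling to equal upper quartiles the log2 differences of *SYP122* and *EXO70B1* were −0.12 and −0.02, and that of *PEN1* was 0.97, under 2-fold. These differences appeared in the column in which the chloroplast-encoded genes were also higher, with the median of 2.00 given above, and the part of that difference in the values of the secretion genes was not tested. With the replicates combined, 1 deviating sample and a shift of all 3 cannot be told apart.

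After flg22, the genotypes were closer. None of the 7 genes was called in either direction, where 1.16% of all genes were called higher in *wlim2a-1* and 68 of 19323 lower. With shares this low, the absence of calls does not set the members apart. They ranged from −0.07 for *EXO70B1* to 0.57 for *EXO70B2* with a median of 0.26, against −0.02 for all genes. No member was called here under any of the 9 other settings tried.

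The log2 difference with flg22 was lower in *wlim2a-1* than in WT for 6 of the 7 genes, the exception being *SYP122*. Of all genes compared, 45.7% had a higher value in *wlim2a-1*, and the median was −0.04. None of the 7 differed by at least 1 between the genotypes, where 5.16% of all genes did in either direction. *PEN1* came nearest, at −0.98, followed by *EXO70B2* at −0.74, *SNAP33* at −0.53, *VAMP721* at −0.39, *EXO70B1* at −0.17 and *VAMP722* at −0.03, while *SYP122* was at 0.15. The value of *PEN1* was −1.01 with a pseudocount of 0.1 and −1.04 relative to *ACT2* and *UBQ10*. The values of *VAMP722* and *EXO70B1* were above 0 after scaling to equal sums, at 0.14 and 0.01, and that of *VAMP722* also after scaling to equal upper quartiles, at 0.09. The comparisons share columns: WT mock enters the WT response and the mock difference, and *wlim2a-1* mock enters the mutant response and the mock difference, so a high *wlim2a-1* mock value lowers the former as it raises the latter.

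**Figure D2:**
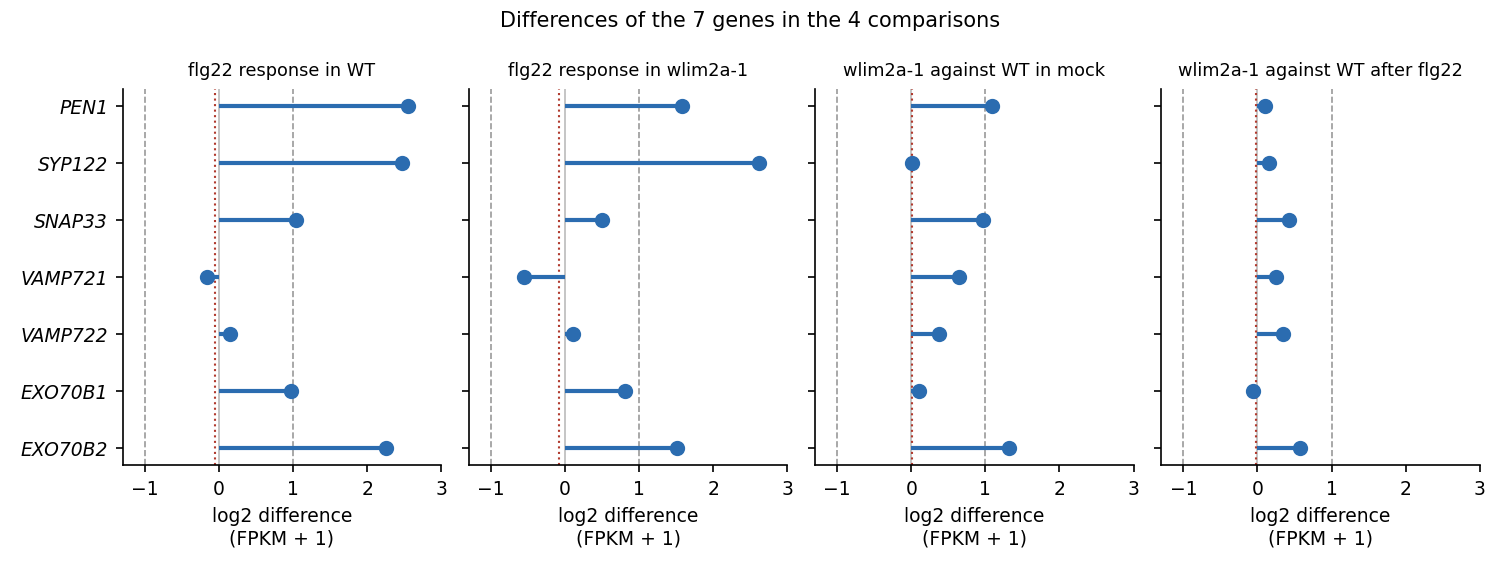
Log2 differences of FPKM + 1 (horizontal axis) of the 7 genes in the 4 comparisons, 1 panel each, with dashed lines at 2-fold and a dotted line at the median of all genes compared. With flg22, 4 points pass 2-fold in WT and 3 in *wlim2a-1*, 2 pass in the mock comparison and none passes after flg22.

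The families from which the members come were set beside them. Of the 7 other plasma membrane syntaxins, 4 had at least 1 FPKM and none of these was called in any comparison, and their median log2 response was −0.11 for WT and −0.05 for the mutant. The most abundant of them, *SYP111* or KNOLLE, a syntaxin of cell division, was at 80.2 FPKM with mock and 65.6 with flg22 in WT, and at 67.1 and 66.0 in the mutant, and is named here after its values were seen. *PEN1* and *SYP122* thus made up 36.2% of the summed FPKM of the 9 syntaxins in WT mock, 50.4% in *wlim2a-1* mock, 80.1% in WT flg22 and 81.6% in *wlim2a-1* flg22. *SNAP33* held at least 99.1% of the summed FPKM of its family in every column, since neither *SNAP29* nor *SNAP30* reached 1 FPKM in any column. *VAMP721* and *VAMP722* held 41.3% to 48.2% of that of the 7 VAMP72 genes. *VAMP724*, also named after its values were seen, was above each of them in every column, at 48.5 and 43.9 FPKM in mock and flg22 for WT and 59.3 and 42.7 for the mutant. None of the 3 other VAMP72 genes compared was called in any comparison. The same held for the 3 of the 4 VAMP71 genes compared, which serve the vacuole and endosomes, and the 3 SM proteins, which bind syntaxins. Of all genes, 1.16% to 5.53% were called higher in these comparisons, and 68 to 822 of the 19323 genes were called lower. The absence of calls in lists this short, the other syntaxins included, therefore does not set them apart.

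**Figure D3:**
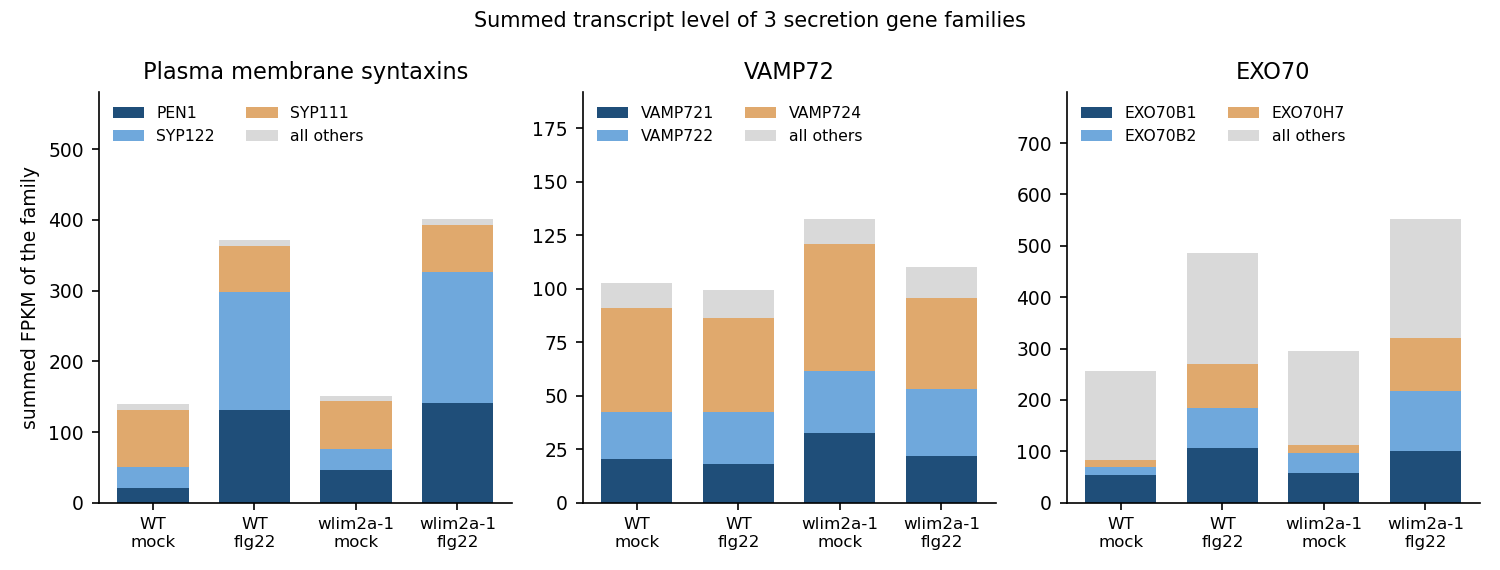
Summed FPKM (vertical axis, from 0) of the plasma membrane syntaxins, the VAMP72 genes and the EXO70 genes in the 4 conditions, with the members in blue, the most abundant other syntaxin and VAMP72 gene and *EXO70H7* in orange and the rest in gray. The syntaxin sum is 140 in WT mock and 372 in WT flg22 while the VAMP72 sum is 103 and 99.3.

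*EXO70B1* and *EXO70B2* belong to a family of 23 genes, whose products are the EXO70 subunits of the exocyst. Of the 21 others, 17 were compared, and 4 of the 17 were called higher in flg22-treated WT and 5 of the 17 in the mutant, with none lower and medians of 0.12 and 0.19, beside 4.47% and 5.53% of all genes called higher. *EXO70H7* was at 13.8 (mock) and 85.6 FPKM (flg22) in WT, beside 15.5 and 103 in the mutant, and its log2 differences of 2.55 and 2.65 exceeded those of *EXO70B2*. *EXO70E2*, a marker of a plant secretory organelle, had 9.99, 23.7, 12.2 and 28.4 FPKM in these columns, with 1.17 and 1.15 on the log2 scale. *EXO70H1*, known from responses to bacteria, had 2.11, 5.86, 1.46 and 8.47 FPKM and differences of 1.14 and 1.94, while *EXO70H2* had 5.48, 10.3, 5.23 and 14.9 FPKM and passed 2-fold only in *wlim2a-1*, at 1.35 against 0.80. The remaining call was *EXO70H4*, a gene of trichome wall formation that is named although it stayed under 5 FPKM, with differences of 1.85 and 1.64. In mock, none of the 17 was called between the genotypes, beside 4.48% of all genes called higher and 118 of 19323 lower. A list this short with no call does not stand apart. The summed FPKM of all 23 genes was 257 (mock) and 486 (flg22) in WT, and 295 and 551 in the mutant, of which *EXO70B1* and *EXO70B2* held 26.9%, 37.8%, 33.1% and 39.4%.

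The other subunits of the exocyst showed no call in any comparison, beside 1.16% to 5.53% of all genes called higher. In the same comparisons, 68 to 822 of the 19323 genes were called lower. With shares this low, a list this short with no call does not stand apart. Of the 12 core genes, 10 were compared, and their median response was −0.05 for WT and −0.44 for the mutant. In mock they had a median of 0.61 between *wlim2a-1* and WT, with 9 of 10 above 0, beside 51.0% of all genes. After flg22 that median was 0.11. Their summed FPKM was 75.7 (mock) and 79.4 (flg22) in WT, and 98.5 and 84.1 in the mutant, so that it was highest in *wlim2a-1* mock, as *VAMP721* was.

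**Figure D4:**
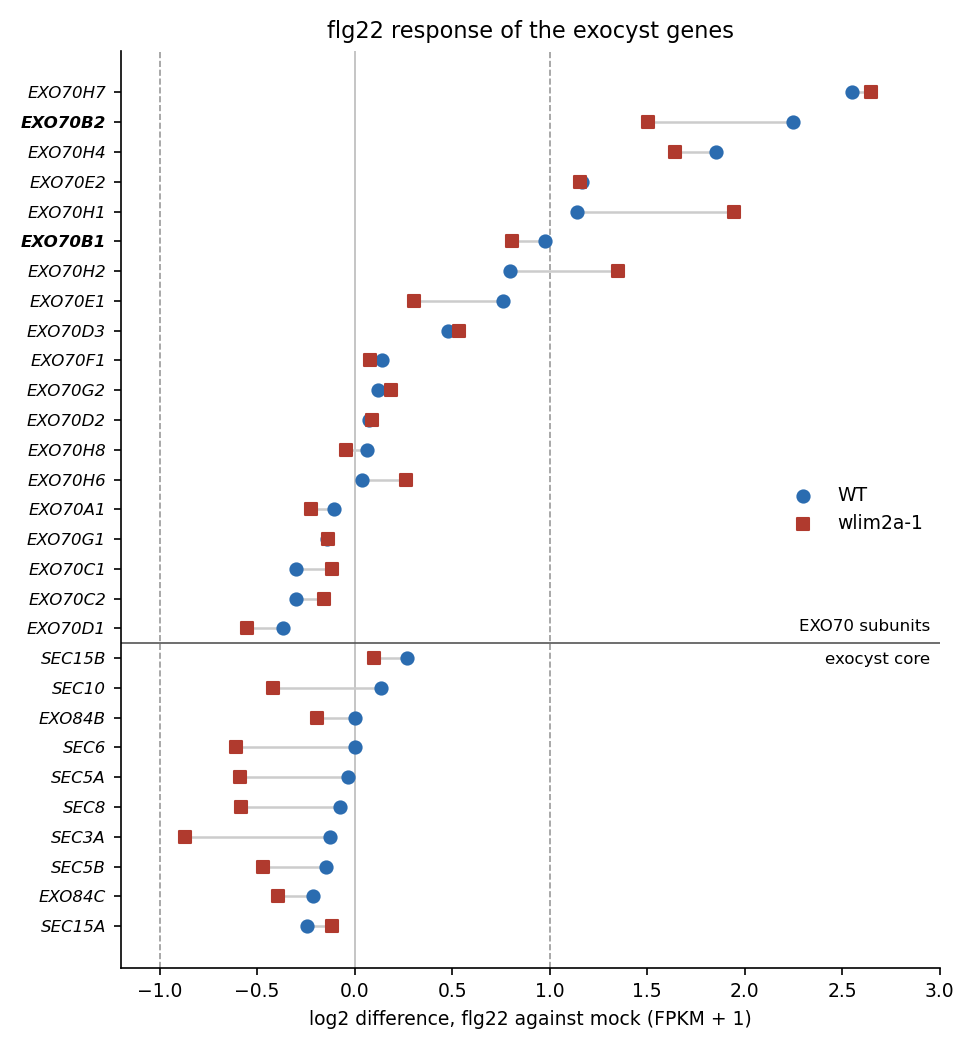
Log2 difference of FPKM + 1 between flg22 and mock (horizontal axis) for the 19 EXO70 genes and the 10 exocyst core genes compared, in WT (circles) and *wlim2a-1* (squares), with dashed lines at 2-fold and the members in bold. *EXO70H7*, *EXO70B2*, *EXO70H4*, *EXO70E2* and *EXO70H1* pass 2-fold in both genotypes and no core gene passes it.

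Genes linked to penetration resistance or to the EXO70B proteins were mostly higher with flg22. They include genes that limit defense. Of the 11 listed, 10 were compared, and 8 of the 10 were called higher in WT and 8 in *wlim2a-1*, with medians of 2.07 and 2.15, beside the same 4.47% and 5.53% of all genes. *PEN2*, an atypical myrosinase, had log2 differences of 2.44 and 2.03, and *PEN3*, a plasma membrane transporter that exports defense compounds, had 2.18 and 1.18. Like *PEN1*, *PEN3* was higher in mock-treated mutant seedlings, with 265 against 113 FPKM in WT (log2 difference 1.22), and its flg22 values of 515 in WT and 600.2 in *wlim2a-1* were closer. The susceptibility factor genes of powdery mildew, *MLO2*, *MLO6* and *MLO12*, had responses of 1.33, 1.94 and 2.58 for WT and 1.12, 2.96 and 3.31 for the mutant. The ubiquitin ligase genes *PUB22*, *PUB23* and *PUB24*, which dampen the flg22 response, had 1.96, 3.61 and 2.38 for WT and 2.86, 3.03 and 2.27 for the mutant. In mock, *PEN3* and *PUB23* were the 2 genes of the 10 called higher in *wlim2a-1*, beside 4.48% of all genes. After flg22 none was called, beside 1.16% of all genes called higher and 68 of 19323 lower, which does not set the list apart. The callose synthase gene *PMR4* and the immune regulator gene *RIN4*, which were not called with flg22, had 0.40 and 0.42 for WT and −0.25 and 0.85 for the mutant. The flg22 responses of *PEN3* and *MLO6*, 2 of the 10 genes, differed by at least 1 between the genotypes, beside 5.16% of all genes. Both passed this limit only narrowly, that of *PEN3* being smaller in *wlim2a-1* and that of *MLO6* larger. Without a spread between replicates, values this near the limit do not set these genes apart.

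The members did not share a common pattern. On log2(FPKM + 1), each gene centered on its own mean over the 4 columns, *PEN1* lay nearest to *EXO70B2* (Euclidean distance 0.41) and farther from *SYP122* (0.90), and the farthest pair was *SYP122* and *VAMP721* (2.93). Among 12605 other genes of at least 5 FPKM on average, *WAKL2*, a wall-associated kinase-like gene, was nearest to *PEN1* (0.09), with AT1G64710 (0.12) and AT3G26910 (0.21) next. The ethylene response factor gene *ERF-1* was nearest to *SYP122* (0.11), followed by AT1G76600 (0.13) and AT2G23680 (0.14). *CMPG1*, *WAKL6* and the receptor kinase gene *HAE* were nearest to *SNAP33*, at 0.07 to 0.09, while *EXO70B2* had no gene nearer than 0.32, where *CAX7*, *CCR3* and *PEN3* lay. *EXO70B1* was nearest to AT1G08315 (0.04), *RLP31* (0.05) and the G-protein subunit gene *AGG2* (0.06). For *VAMP721* these were AT1G78620, AT5G16300 and AT1G33230, at 0.02 to 0.04, and for *VAMP722* they were *UBC35*, AT1G51540 and *GSTU7*, at 0.03 to 0.04. Distances over 4 columns are descriptions, and flat patterns such as those of the VAMP genes lie near many genes.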

How the data were processed

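The authors aligned paired-end reads to TAIR10 with TopHat2 (2.1.1) after checking them with FastQC (0.11.5), assembled transcripts with Cufflinks and ran Cuffdiff (2.2.1) with quartile normalization, per the labels and methods. The deposited FPKM values are the authors' single value per gene and condition, and which program wrote them is not stated. The labels name a guaranteed 30 M reads per sample. No read counts or values per replicate were used, so no SD, interval or test was computed, and limma, named by the authors, was not run.

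Values were used as deposited. A pseudocount of 1, a minimum of 1 FPKM in some condition and a 2-fold threshold were applied with pandas 2.3.3 and numpy 2.4.6, and the calling step was tested on simulated data. The members, the 8 lists of 65 related genes and the thresholds were chosen with earlier results of these data known. Genes named were the members, listed genes called with at least 5 FPKM and none at 0, the 3 nearest in pattern to each member, and checks. Symbols came from RefSeq (TAIR10.1), which held 26703 of the 27371 identifiers and all 81 genes listed. The planned search of promoters and proteins was not run, because no sequences were used here. The 9 other settings were other pseudocounts, minimums, thresholds and scalings, and 1 was added.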

Additional observations from a re-analysis of the deposited data

How the results depend on the processing

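No paired analysis was possible because the replicates were combined, and for the same reason no replicate could be left out. The number of members called with flg22 was 4 in WT and 3 to 5 under the alternatives. In *wlim2a-1* it was 3, but 1 at a 4-fold threshold, 2 relative to *ACT2* and *UBQ10*, and 4 at 1.5-fold or against WT mock, the last chosen after seeing the data. In mock it was 2 between the genotypes, 1 with a pseudocount of 5 or after scaling to equal upper quartiles, 3 relative to *ACT2* and *UBQ10*, 4 at 1.5-fold and 0 at 4-fold. For the difference between the flg22 responses it was 0, but 1 with a pseudocount of 0.1 or relative to *ACT2* and *UBQ10*, and 2 at 1.5-fold. Of the 35 member results, none of those called at the main settings changed direction under another setting. Some values under 2-fold did, 3 under each scaling and 1 against WT mock. That of *SNAP33* with flg22 in *wlim2a-1*, for example, went from 0.50 to −0.13 relative to *ACT2* and *UBQ10*. Filters on low FPKM could not change a call of a member, since all member values were at least 15.5 FPKM, above every minimum tried. A pseudocount of 5 lowered the counts of all genes called higher with flg22 from 864 to 545 in WT and from 1068 to 683 in *wlim2a-1*, and in mock from 866 to 395. At 4-fold these counts were 307, 345 and 187, and at 1.5-fold 1526, 2203 and 2421, while relative to *ACT2* and *UBQ10* the flg22 counts were 503 and 561. After flg22, 225 genes were higher in *wlim2a-1*, against 380 and 102 with pseudocounts of 0.1 and 5, and 566 and 59 at 1.5-fold and 4-fold. For the difference between the responses, 282 genes were higher and 715 lower, against 540 and 1121 or 104 and 330 with these pseudocounts, and 1115 and 2278 or 76 and 150 at these thresholds. Of all genes called with flg22, 90.5% were higher in WT and 56.5% in *wlim2a-1*, against 40.3% and 11.9% relative to *ACT2* and *UBQ10*, and 66.8% in *wlim2a-1* after scaling to equal sums. Of the genes whose responses differed, 28.3% were higher in *wlim2a-1*, 38.8% after scaling to equal upper quartiles and 44.5% to equal sums. Scaling to equal sums moved the median of all genes between the genotypes after flg22 from −0.02 to 0.13. The depth of the libraries is unknown, so it gives no limit of detection.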

Other observations

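By gene order in the RefSeq annotation of TAIR10.1, and noticed after the values were seen, both flg22-responsive syntaxin genes lie close to a gene of the PUB ubiquitin ligases that dampen the flg22 response. *PUB24* is the third protein-coding gene after *PEN1* and was at 3.61 FPKM with mock and 23.0 with flg22 in WT, and at 5.59 and 30.7 in the mutant. *PUB22* is the fourth after *SYP122* and had 13.2, 54.3, 10.7 and 84.3 FPKM in these columns. Between *PEN1* and *PUB24*, AT3G11825 was listed at 0 throughout and AT3G11830 had 6.51 to 7.99 FPKM, while *PAD4*, a regulator of basal resistance that lies between *SYP122* and *PUB22*, had 8.57 FPKM in WT mock and 15.6 in WT flg22. Among the 51 genes compared within 5 places of any member, 3 were called higher with flg22 in WT, *PUB24*, *PUB22* and *AACT1*, beside 4.47% of all genes. This count is near that share and does not set the neighbors apart. In *wlim2a-1*, 3 of the 51 were called higher with flg22, beside 5.53% of all genes. In mock, *AACT1*, AT5G61190 and AT5G61240, all near *SNAP33*, were called higher in *wlim2a-1*, beside 4.48%. *AACT1*, an acyltransferase gene 5 places from *SNAP33*, was at 5.67 (mock) and 258 FPKM (flg22) in WT, beside 15.4 and 269 in the mutant. *VAMP726* and *VAMP723*, which adjoin *VAMP721* and *VAMP722*, had at most 0.373 and 4.85 FPKM.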
